A study of Mus musculus with 6 samples.

Results

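The genes described here are 9 genes of innate immune cells. They are the 4 mouse Fc gamma receptor genes Fcgr1, Fcgr2b, Fcgr3 and Fcgr4, their signalling adapter Fcer1g, and 4 genes of the Ms4a family, Ms4a6b, Ms4a6c, Ms4a6d and Ms4a7. They were taken by name from the 15441 genes that any of the libraries listed, and each was matched by its Ensembl identifier. Levels were compared in the whole ipsilateral cortex of male C57/BL6J mice, aged 6 to 8 weeks, after photothrombosis, in which the dye Rose Bengal is given and cold light through the skull closes the vessels beneath it. There were 6 RNA-seq libraries, 1 for sham-operated mice (control), which had the same operation without the light and were sampled at day 7 after it, and 1 each for 5 time points after stroke (days 1, 3, 7, 14, 28). Each library held the pooled RNA of 3 mice. With 1 library per group no difference has a replicate check, so no test, SD or p-value is given, and neighbouring levels in any order below cannot be told apart from the spread between mice. The 5 ratios to sham share 1 sham library, so a high or low sham value moves all of them together.

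Fc gamma receptors bind the constant part of IgG antibodies on the surface of microglia, macrophages, monocytes and neutrophils. The activating receptors Fcgr1, Fcgr3 and Fcgr4 carry no signalling motif of their own. They signal through the common gamma chain encoded by Fcer1g, whose activating motif (ITAM) recruits the kinase Syk. Fcgr2b is the inhibitory receptor, and its own motif (ITIM) recruits the phosphatase encoded by Inpp5d. Ms4a proteins span the membrane 4 times, and the members named here are expressed in cells of the macrophage lineage, among others. In a bulk cortex library, more cells of a type and more RNA per cell cannot be told apart.

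The receptor genes lie in clusters in the mouse genome (mm10/GRCm38, GENCODE M21). Fcgr2b (chr1:170958617-170976547, minus strand), Fcgr4 (chr1:171018920-171029761, plus), Fcgr3 (chr1:171051174-171064935, minus) and Fcer1g (chr1:171229572-171234365, minus) lie close together on chromosome 1, and Fcgr1 (chr3:96282909-96293969, minus) lies apart on chromosome 3. The 4 Ms4a genes lie together on chromosome 19, Ms4a7 at chr19:11321039-11336146 (minus), Ms4a6c at chr19:11469366-11482192 (plus), Ms4a6b at chr19:11516512-11531256 (plus) and Ms4a6d at chr19:11586604-11604849 (minus).

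Promoter sequences from RefSeq (GRCm38.p6), each 250 bases before and 50 bases after an annotated start, were found for 8 of the 9 genes in 10 windows, with none for Ms4a6d. They are shown because the genes were high in the same libraries and because PU.1, the myeloid factor encoded by Spi1, binds GAGGAA, a sequence long known from Fc receptor promoters. GAGGAA was found on either strand in windows of 4 of the 8 genes (Fcgr1, Fcgr3, Fcgr4 and Ms4a7), and 28.3% of all 32851 mouse windows hold it. The 3 windows printed are those with GAGGAA that lie closest to a start event of these data, at 36 bases for Fcgr1, 6 for Fcgr4 and 2 for Ms4a7. They cover chr3:96293920-96294219 (minus strand, Fcgr1), chr1:171018676-171018975 (plus, Fcgr4) and chr19:11336097-11336396 (minus, Ms4a7). Capitals mark GAGGAA or its reverse complement TTCCTC, and in Fcgr1 also the interferon gamma-type element TTCNNNGAA.
Fcgr1: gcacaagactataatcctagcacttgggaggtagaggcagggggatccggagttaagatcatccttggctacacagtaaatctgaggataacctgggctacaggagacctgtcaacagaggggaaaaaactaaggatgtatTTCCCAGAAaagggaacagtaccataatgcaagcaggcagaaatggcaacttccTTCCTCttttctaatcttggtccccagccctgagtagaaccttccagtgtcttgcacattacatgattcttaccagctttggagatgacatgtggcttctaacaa
Fcgr4: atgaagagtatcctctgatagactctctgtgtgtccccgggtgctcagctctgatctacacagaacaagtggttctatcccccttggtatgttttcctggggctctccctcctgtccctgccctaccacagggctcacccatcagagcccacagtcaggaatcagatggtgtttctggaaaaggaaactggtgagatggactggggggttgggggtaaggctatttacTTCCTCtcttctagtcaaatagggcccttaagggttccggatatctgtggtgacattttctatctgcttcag
Ms4a7: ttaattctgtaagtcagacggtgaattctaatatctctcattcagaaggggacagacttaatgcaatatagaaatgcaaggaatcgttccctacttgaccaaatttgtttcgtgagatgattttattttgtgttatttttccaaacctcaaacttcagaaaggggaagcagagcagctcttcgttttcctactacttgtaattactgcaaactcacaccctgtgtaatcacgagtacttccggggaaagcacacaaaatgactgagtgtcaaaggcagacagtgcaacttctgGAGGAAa
Read along the gene, the first base of the marked stretch stood at position -55 from the start in Fcgr1 (TTCCTC), at -22 in Fcgr4 (TTCCTC) and at 43 in Ms4a7 (GAGGAA). TTCNNNGAA was in the Fcgr1 window only, from -109, and 8.30% of all windows hold it. Of the other motifs searched on both strands, TTGCNNAA (C/EBP type) was in the windows of Fcgr3 only (10.8% of all windows), and TATAAA (13.6%) and TGACTCA (5.20%) were in none of the 10. GAGGAA overlaps none of these in the printed windows. These matches describe letters in a window and not binding.

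Fcgr2b is made in forms that differ by 2 exons, and their levels differed between libraries. The membrane exon (exon 5, chr1:170965702-170965824, minus strand, 123 bases or 41 codons) encodes the segment that spans the membrane. The cytoplasmic exon (exon 6, chr1:170963325-170963465, minus strand, 141 bases or 47 codons) adds an insert to the inner tail. As background, the form with the insert is the one of B cells, the form without it is the one of myeloid cells and is taken up into the cell with its ligand, and a soluble form without the membrane exon is known from mouse macrophages. The exons are printed in lower case throughout, as each is skipped or kept whole.
Membrane exon: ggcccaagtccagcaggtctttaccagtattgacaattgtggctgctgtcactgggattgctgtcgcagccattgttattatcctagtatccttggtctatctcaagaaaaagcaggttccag
Cytoplasmic exon: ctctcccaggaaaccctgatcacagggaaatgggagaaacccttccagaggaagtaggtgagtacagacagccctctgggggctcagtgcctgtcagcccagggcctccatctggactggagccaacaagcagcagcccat

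Each of the 9 genes had its highest level at day 3, 7 or 14 post-stroke, with a lower level or no listing in sham and a lower level again at day 28. The values are FPKM, read fragments scaled to transcript length and library size, and can be set side by side between genes. A gene counts as higher or lower here when log2((FPKM + 0.1)/(sham FPKM + 0.1)) reaches 1 or -1, among genes with at least 1 FPKM in either of the 2 libraries. At day 1, 4 of the 7 members that passed this filter were higher (Fcgr2b, Fcgr4, Ms4a6c and Ms4a6d), while 5.11% of all genes were. All 9 members passed at day 3, 7 and 14, and 9 of 9 were higher at each, against 8.54%, 8.53% and 8.97% of all genes. At day 28, 5 passed and 1 was higher (Ms4a6d), against 3.68% of all genes. No member was lower at any day, while 4.48%, 2.53%, 2.12%, 6.92% and 2.79% of all genes were at the 5 days in turn. Fcgr4 and the 4 Ms4a genes, all under 1 FPKM or not listed in sham, passed only through the libraries after stroke in which they were high. With genes listed in both libraries only, 3 of 6 members were higher at day 1 (4.13% of all such genes), 7 of 7 at day 3, 7 and 14 (7.15%, 7.08% and 7.69%) and 1 of 5 at day 28 (3%). Of the 4 members with at least 1 FPKM in sham (Fcer1g, Fcgr1, Fcgr2b and Fcgr3), 1 was higher at day 1 (Fcgr2b), 4 at day 3, 7 and 14 and 0 at day 28.

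**Figure D1:**
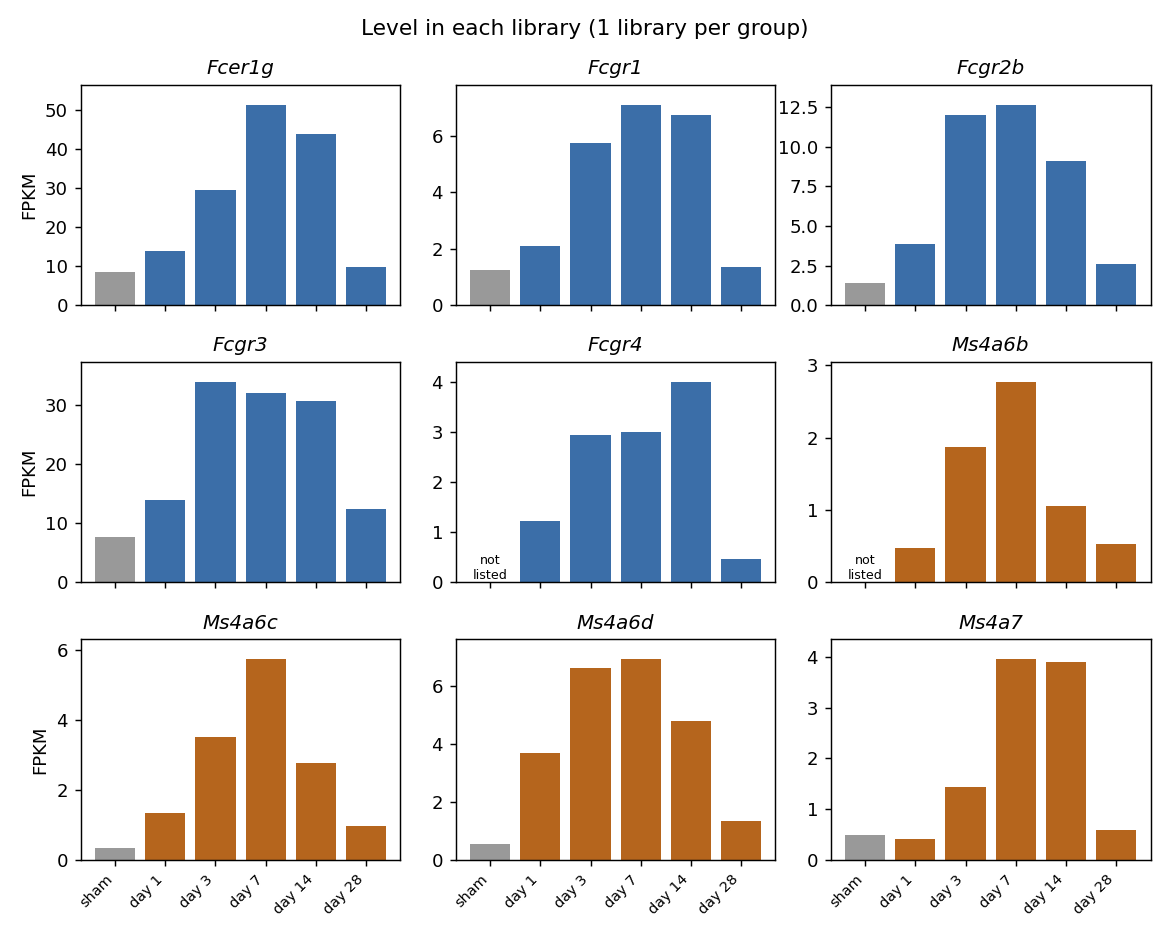
Level of each of the 9 genes (FPKM, linear axis from 0, own scale per gene) in the 6 libraries, 1 bar per library, sham in grey, receptor genes and Fcer1g in blue and Ms4a genes in brown. The highest bar is at day 7 for 7 of the 9 genes, at day 3 for Fcgr3 and at day 14 for Fcgr4, and Fcgr4 and Ms4a6b are not listed in sham.

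The median log2 ratio to sham of the 7 members listed in sham was 0.85 (day 1), 2.12 (day 3), 2.77 (day 7), 2.61 (day 14) and 0.68 (day 28). The same median over all genes listed in both libraries stayed between 0.01 and 0.10. At day 7 even the lowest of the 7 members (Fcgr3, 2.04) lay above the 90th percentile of all genes (0.77). A log2 ratio of 2 or more was reached by 2 members at day 1 (Fcgr4 and Ms4a6d), 7 members at day 3, 9 at day 7, 8 by day 14 and 0 by day 28. The corresponding shares of all genes were 1.78%, 2.98%, 3.46%, 3.01% and 1.21%. Fcgr4 and Ms4a6b are in these counts with sham taken as 0, which puts any gene that passes the filter past a log2 ratio of 2. Without them the counts were 1, 5, 7, 6 and 0, against 0.736%, 1.47%, 1.91%, 1.48% and 0.501% of the genes listed in both libraries.

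**Figure D2:**
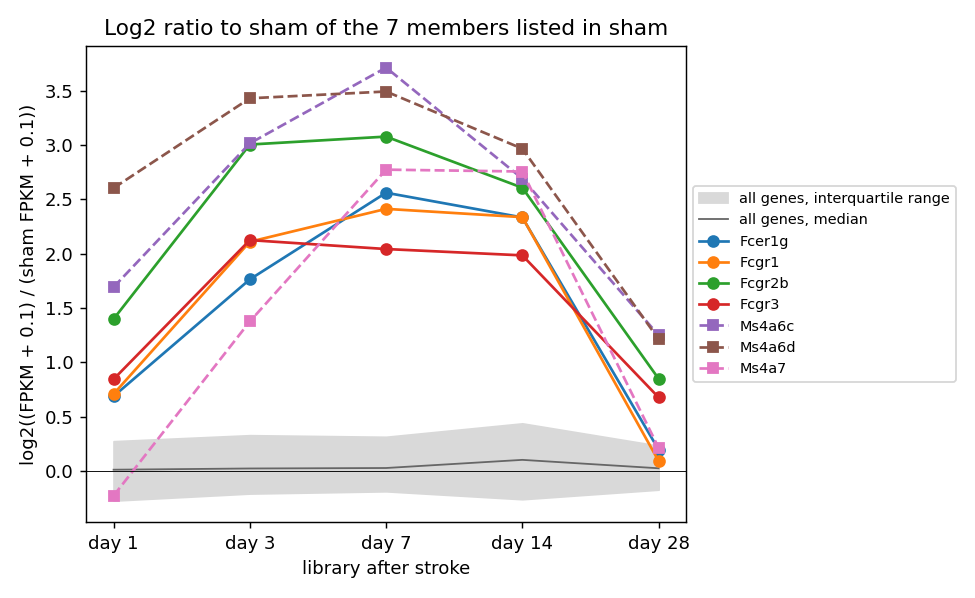
Log2 ratio to sham (y axis, with 0.1 FPKM added to both values) of the 7 members listed in sham at the 5 days (x axis, not to scale), receptor genes with solid lines and Ms4a genes with dashed lines. The grey band is the interquartile range of all genes, and the members lie above it at day 3, 7 and 14, with Ms4a7 below 0 at day 1 (-0.23).

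Fcer1g, the adapter, had the highest level of the 9 genes in sham, at day 7 and at day 14. It was level with Fcgr3 at day 1 and below it at day 3 and 28. Its level was 8.60 FPKM in sham, 13.9 (day 1), 29.4 (day 3), 51.2 (day 7), 43.7 (day 14) and 9.88 (day 28). It stood at the 58.7th percentile of listed genes in sham and at the 93.6th at day 7. The log2 ratio to sham was 0.69 (day 1), 2.56 (day 7) and 0.20 (day 28). The adapter thus passed the threshold at day 3, 7 and 14 and was near its sham level at day 28.

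Fcgr3, the low-affinity activating receptor that is also known as CD16, was the most abundant receptor gene in every library. Its level was 7.69 FPKM in sham, 13.9 (day 1), 33.9 (day 3), 32.0 (day 7), 30.7 (day 14) and 12.4 (day 28). Relative to day 7 its level was 106% at day 3 and 96.0% at day 14, the flattest course of the 9 genes over these 3 libraries. Its level at day 28 was 38.7% of that at day 7, while the other 8 members were at 14.9% (Ms4a7) to 20.8% (Fcgr2b). The log2 ratio to sham was 0.68 at day 28, under the threshold.

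Fcgr1 encodes CD64, the high-affinity receptor for monomeric IgG. Its level was 1.25 FPKM in sham, 2.11 (day 1), 5.73 (day 3), 7.09 (day 7), 6.72 (day 14) and 1.34 (day 28). The log2 ratio to sham was 2.11 (day 3), 2.41 (day 7) and 2.34 (day 14), and at day 28 it was 0.09, the smallest of the 7. Fcgr4, a receptor of intermediate affinity for IgG2 antibodies, was not listed in sham. It was at 1.23 FPKM (day 1), 2.95 (day 3), 3.01 (day 7), 4.01 (day 14) and 0.475 (day 28), so that it alone had its highest value at day 14. No ratio to sham is given for it. Not being listed does not show absence, since Cx3cr1 and Tmem119, 2 genes that microglia of the normal cortex express, were not listed in sham either.

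Fcgr2b, the inhibitory receptor, was at 1.41 FPKM in sham, 3.88 (day 1), 12.01 (day 3), 12.6 (day 7), 9.09 (day 14) and 2.62 (day 28). It had the largest log2 ratio of the receptor genes listed in sham at each day, with 1.40 (day 1), 3.00 (day 3), 3.08 (day 7), 2.61 (day 14) and 0.85 (day 28). At day 7 this is 8.43-fold, beside 4.12-fold for Fcgr3, 5.32-fold for Fcgr1 and 5.90-fold for Fcer1g. The levels of activating and inhibitory receptors were thus set differently against each other from library to library. The summed FPKM of Fcgr1, Fcgr3 and Fcgr4 was 6.34 times that of Fcgr2b in sham, 4.44 times (day 1), 3.54 (day 3), 3.33 (day 7), 4.56 (day 14) and 5.41 (day 28). The ratio was highest in sham and lowest at day 7, and no ratio to sham or pseudocount enters it. Fcgr4 counts as 0 in sham there. Fcgr3 and Fcgr2b share sequence. Of the 50-base windows of Fcgr3 transcripts, 12.8% (166) also occur in Fcgr2b, which is 4.75% of the Fcgr2b windows, so fragments from these stretches could be credited to either gene.

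The share of each receptor within the activating sum also differed between libraries. Fcgr3 made up 86.0% of it in sham, 80.6% (day 1), 79.6% (day 3), 76.0% (day 7), 74.1% (day 14) and 87.2% (day 28). Fcgr1 and Fcgr4 held the rest, so that sham and day 28 were both more strongly dominated by Fcgr3 than the libraries between them. The FPKM of Fcer1g over the activating sum was 0.961 in sham, 0.807 (day 1), 0.691 (day 3), 1.22 (day 7), 1.05 (day 14) and 0.696 (day 28). The adapter was thus lowest relative to the receptors at day 3 and day 28, and highest at day 7.

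The myeloid-type form, with the membrane exon and without the cytoplasmic exon, was the main form of Fcgr2b in every library. It was at 1.25 FPKM in sham, 3.23 (day 1), 9.71 (day 3), 10.2 (day 7), 6.72 (day 14) and 2.49 (day 28). In sham and at day 28 it accounted for 100% of the transcripts that end at the main end of the gene, and between these for 83.9%, 81.8%, 83.2% and 76.9%. The form with both exons was listed at day 7 only, at 2.06 FPKM or 16.8%. Transcripts without both exons were listed at day 1 (0.618 FPKM, 16.1%), day 3 (2.16 FPKM, 18.2%) and day 14 (2.01 FPKM, 23.1%), at day 1 with another splice site in the exon before. These forms were looked at after the values were seen. They are estimates of assembled transcripts, so a form at a low share can be missing from 1 library and present in the next, and neither its absence nor its day has a replicate check. A further end in the intron after the membrane exon was at 0.0384 to 0.382 FPKM.

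**Figure D3:**
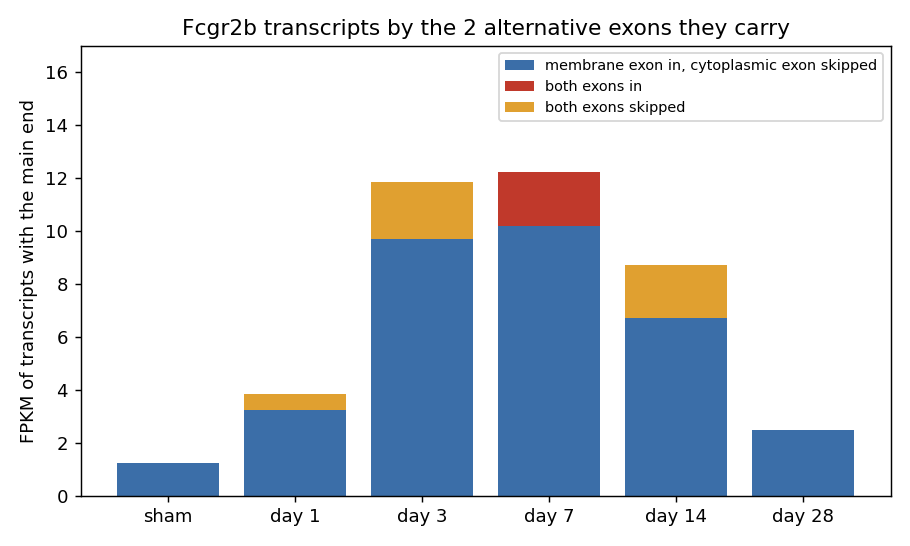
FPKM of Fcgr2b transcripts with the main end (y axis) in each library, stacked by form. Blue, with the membrane exon and without the cytoplasmic exon, is the largest part in every library, red (both exons) is listed at day 7 only and yellow (neither exon) at day 1, 3 and 14.

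Markers of B cells, in which the form with the insert is known, were few. Of 8 B or plasma cell markers 3 had a value. Cd79a was listed from day 3 on, at 0.681, 0.611, 1.03 and 0.605 FPKM in turn. Cd79b was at 0.378 FPKM at day 3 and 0.587 at day 7, and Jchain at 0.25 FPKM at day 3. Their sum was 0 in sham and at day 1, and 0.605 to 1.31 FPKM afterwards. The defining markers Ms4a1 and Pax5 had no value in any library. Their part in the form listed at day 7 was not tested.

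Among the Ms4a genes, Ms4a6d was the first to be high. Its level was 0.524 FPKM in sham, 3.69 (day 1), 6.62 (day 3), 6.92 (day 7), 4.77 (day 14) and 1.35 (day 28). The log2 ratio to sham was 2.60 at day 1, the largest of the 7 members, and at day 28 it was 1.21. At day 1 it had reached 53.4% of its day 7 level, while the other members were at 10.3% (Ms4a7) to 43.4% (Fcgr3). It was the only member not called higher at day 3 against day 1 (log2 ratio 0.83), and 8 of 9 members were, against 8.89% of all genes, with none lower (3.55%).

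Ms4a6c was at 0.345 FPKM in sham, 1.34 (day 1), 3.49 (day 3), 5.73 (day 7), 2.77 (day 14) and 0.958 (day 28). Its log2 ratio to sham of 3.71 at day 7 (13.1-fold) was the largest of the 7 members with a ratio at any day, from a sham level below 1 FPKM. Ms4a6b was not listed in sham and was at 0.471 FPKM (day 1), 1.87 (day 3), 2.77 (day 7), 1.06 (day 14) and 0.531 (day 28). Both genes thus had their highest value at day 7, and at most 67.5% of it in any other library. The Ms4a6 genes are close copies, and 6.08% of the 50-base windows of Ms4a6c (109) and 2.92% of those of Ms4a6d (40) also occur in Ms4a6b, so the values of these genes could be split between them.

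Ms4a7 was the late member. Its level was 0.494 FPKM in sham, 0.408 (day 1), 1.44 (day 3), 3.96 (day 7), 3.91 (day 14) and 0.589 (day 28). It was the only member below its sham value at day 1 (log2 ratio -0.23, both libraries under 0.5 FPKM) and the only one called higher at day 7 against day 3 (log2 ratio 1.40), against 3.22% of all genes, and no member was lower in that comparison (2.81%). At day 14 it had kept 98.8% of its day 7 level. An exon of 57 bases (chr19:11325807-11325863, minus strand) was skipped in 19.8% (day 3), 0.53% (day 7) and 12.5% (day 14) of its transcripts, and no skipping was listed in the other libraries. The skipped form was at only 0.286, 0.0211 and 0.489 FPKM at these days. Where it was not listed the whole gene was at 0.408 to 0.589 FPKM, so its absence there cannot be read. Like the Fcgr2b forms, these are estimates of assembled transcripts without a replicate check. The exon was chosen after its values were seen. The sham value of Ms4a7 rests on 1 event, the inclusion of this exon.

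Between day 7 and day 14 the members parted. Against day 7, 2 of 9 were lower at day 14, Ms4a6b (log2 ratio -1.31, 38.3% of day 7) and Ms4a6c (-1.02, 48.4%), against 8.52% of all genes, and none was higher (4.17% of all genes). Next came Ms4a6d at 69.0%, Fcgr2b at 72.0% and Fcer1g at 85.4%. Fcgr1 (94.8%), Fcgr3 (96.0%), Ms4a7 (98.8%) and Fcgr4 (133%) had kept or passed their day 7 level. The median log2 ratio of day 14 to day 7 was -1.02 for the 3 Ms4a6 genes and -0.08 for the 5 receptor genes including Fcer1g. Ms4a6 genes were set apart from Ms4a7 after the values were seen, and the median of all 4 Ms4a genes was -0.77. Library day 14 differs from sham in a way that depends on transcript length (Spearman's rho across genes of the log2 ratio with length -0.42, where genes are not independent replicates). Corrected for that trend, Ms4a6b, Ms4a6c and Ms4a6d stood at 41.0%, 39.9% and 55.8% of day 7, Fcer1g at 66.8% and the 4 Fcgr genes at 71.6% to 105%.

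**Figure D4:**
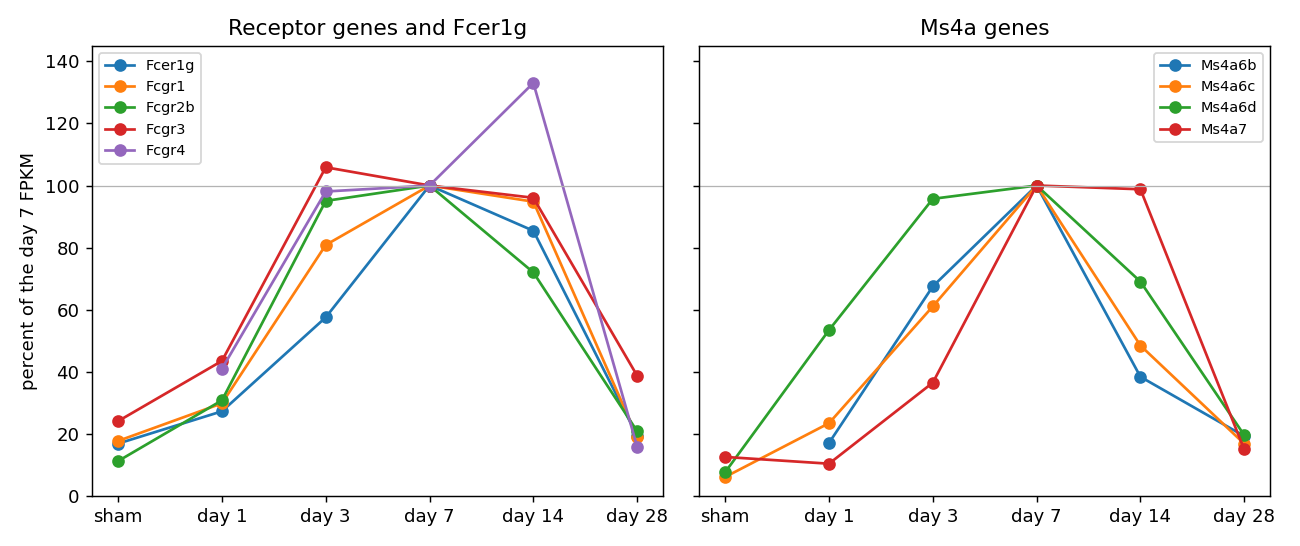
Level of each member as a percent of its own day 7 FPKM (y axis) in the 6 libraries (x axis, not to scale), with the receptor genes and Fcer1g on the left and the Ms4a genes on the right. At day 14 Ms4a6b and Ms4a6c lie at 38.3% and 48.4% and the Fcgr genes at 72.0% to 133%, and at day 28 8 of the 9 genes lie between 14.9% and 20.8%, with Fcgr3 at 38.7%.

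From day 14 to day 28, 8 of 9 members were lower, against 7.88% of all genes, with none higher (6.94%), and Ms4a6b, which was low already, had a log2 ratio of -0.88. Against day 7, 9 of 9 were lower at day 28, against 7.83% of all genes, and none was higher (2.63%). The median of the members for day 28 over day 7 was -2.32 on the log2 scale, and that of all genes was 0.00. Levels at day 28 were still above sham in each of the 7 members listed there, by log2 ratios of 0.09 (Fcgr1) to 1.25 (Ms4a6c). Of these, Ms4a6c and Ms4a7 were under 1 FPKM in both libraries.

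The ratio of the 4 Fcgr genes to the 4 Ms4a genes, as summed FPKM, was 7.60 in sham, 3.57 (day 1), 4.06 (day 3), 2.83 (day 7), 4.04 (day 14) and 4.90 (day 28). The median log2 ratio to sham of the receptor genes minus that of the Ms4a genes was -0.91 (day 1), -0.90 (day 3), -1.005 (day 7), -0.42 (day 14) and -0.78 (day 28). This difference between the families rests on the low sham values of the Ms4a genes, all at most 0.524 FPKM. With a pseudocount of 1 FPKM in place of 0.1 it lay between -0.16 and 0.25 and was above 0 at day 3 and 14, so no difference in the strength of the response between the families can be read from these ratios.

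Of the genes known to act downstream of the activating receptors, 20 were listed and all 20 had a value. Of those that passed the filter, 4 of 15 were higher at day 1, 11 of 18 at day 3, 14 of 18 at day 7, 9 of 16 by day 14 and 0 of 13 by day 28, and none was lower. The shares of all genes called higher at these days were 5.11%, 8.54%, 8.53%, 8.97% and 3.68%, and those called lower 4.48%, 2.53%, 2.12%, 6.92% and 2.79%. The filter left out the genes Was at day 1 and 14 (log2 ratios -1.53 and -1.58) and Btk at day 28 (-1.12). Both were under 1 FPKM in the 2 libraries compared, and are named here after their values were seen. The median log2 ratio of the listed signalling genes was 0.41, 1.43, 1.47, 1.15 and 0.16 at the 5 days. Among those listed in sham, the largest ratios at day 7 were those of Rac2, a GTPase of phagocytes (0.247 FPKM in sham and 4.85 at day 7, log2 ratio 3.83), and Lat2, an adapter (0.373 and 3.65 FPKM, 2.99). Pik3cg, a kinase of leukocytes, was not listed in sham and at 2.38 FPKM at day 7, and is in the count with sham taken as 0. Rac2, Lat2, Pik3cg and others under 1 FPKM or not listed in sham passed the filter only through the libraries after stroke. Ncf1, a subunit of the phagocyte oxidase, was at 1.98 FPKM in sham and 11.9 at day 7, and Arpc1b, a subunit of the actin-branching Arp2/3 complex, at 6.50 and 21.5. The kinase Src and the protein kinase C gene Prkcd, which many cell types express, had log2 ratios of -0.08 and 0.38 at day 7. Syk itself, named here after its values were seen, was at 1.01 FPKM in sham, 0.624 (day 1), 1.93 (day 3), 2.59 (day 7), 1.88 (day 14) and 0.859 (day 28), and passed the threshold at day 7 only (1.27).

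Of 10 genes of inhibitory signalling, 9 had a value and 4 of the 7 that passed the filter were higher at day 7, against 8.53% of all genes. These were Cd300a (0.121 FPKM in sham and 1.43 at day 7), Ptpn6 (1.79 and 9.89), which encodes the phosphatase SHP-1, Dok1 (0.759 and 2.72) and Inpp5d (3.53 and 10.7), the phosphatase SHIP-1 that acts below Fcgr2b. Cd300a and Dok1, both under 1 FPKM in sham, passed the filter only through the libraries after stroke in which they were high. At day 14 Inpp5d was at 4.16 FPKM, near its sham level, and Cd300a, Ptpn6 and Dok1 were still called higher. Sirpa, Ptpn11 and Csk, which the brain expresses widely, had log2 ratios of 0.09, 0.05 and 0.71 at day 7.

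Tyrobp encodes DAP12, the other main ITAM adapter of microglia. It was at 21.5 FPKM in sham, 31.6 (day 1), 82.0 (day 3), 146 (day 7), 117 (day 14) and 31.7 (day 28), with a log2 ratio of 2.76 (day 7), beside 2.56 for Fcer1g. Of the 7 ITAM adapters with a value, out of 8, it alone passed the filter at day 7. Of 12 further receptors listed as possible partners of Fcer1g, 8 had a value and 2 of the 3 that passed the filter at day 7 were higher, against 8.53% of all genes. Clec4n, a lectin receptor known to pair with Fcer1g, was at 0.510 FPKM in sham and 1.73 at day 7. Clec4a2 (0.187 and 1.28 FPKM) is a lectin receptor with an inhibitory motif of its own, and Siglech, the third that passed (7.01 and 4.22 FPKM), is known to pair with Tyrobp, so these 2 do not fall under the list's name. Clec4n and Clec4a2, both under 1 FPKM in sham, passed the filter only through the day 7 library in which they were high.

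Of 13 other Fc receptors 5 had a value. Fcrls, a gene known from microglia, was at 15.2 FPKM in sham, 19.2 (day 1), 63.9 (day 3), 78.5 (day 7), 36.7 (day 14) and 3.63 (day 28). At day 28 it was below sham (log2 ratio -2.03), where no member listed in sham was. Fcgrt, the neonatal Fc receptor that recycles IgG, was at 6.35 FPKM in sham and highest at day 14 with 14.2 (log2 ratio 1.15). A list of 8 antibody-related genes held those of the IgG heavy chains, which Fc gamma receptors bind, and others such as Ighm, Igha and Jchain. Ighg2c was listed in every library at 0.533 to 1.17 FPKM with no threshold passed, Jchain at day 3 only, and the other 6 had no value.

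Of 15 further Ms4a and related genes 6 had a value. Tmem176b and Tmem176a, related 4-span genes, were called higher at day 3 (38.7 FPKM against 18.0 in sham, and 8.68 against 3.57), and Tmem176b also at day 14. Ms4a4a, Ms4a4b, Ms4a4d and Ms4a15 never reached 1 FPKM, and the B-cell gene Ms4a1 had no value. Among transcription factors of myeloid cells, Spi1 (1.89 FPKM in sham and 9.45 at day 7), Irf1 (1.65 and 3.82) and Irf5 (1.89 and 3.92) were higher at day 7.

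The cells that could hold these genes were followed by marker lists. The summed FPKM of 10 microglia markers, relative to sham, was 0.842 (day 1), 2.14 (day 3), 2.65 (day 7), 1.83 (day 14) and 0.992 (day 28), from 129 FPKM in sham. All 10 had a value, but Cx3cr1 was listed at day 1 and 14 only and Tmem119 at day 7 and 28 only. The sum of 10 monocyte or macrophage markers was 2.67, 5.16, 4.16, 3.60 and 1.80 times sham at these days, from 3.73 FPKM, with Ccr2 not above 0.199 FPKM in any library. Few genes carried much of this sum. Cd44 was at 0.582 FPKM in sham, 4.01 (day 1) and 3.86 (day 14). Plac8, not listed in sham, was at 1.26 FPKM (day 1) and 2.42 (day 14), and Ly6c2, not listed in sham either, at 3.56 (day 14). The median log2 ratio of the markers listed in both libraries was 0.76 at day 1 and 0.55 at day 14. The sum of the neutrophil markers, of which 9 of 10 had a value, was 13.5, 3.94, 5.16, 8.15 and 1.45 times sham, from 1.53 FPKM, and Ly6g had no value. Most of this sum was Csf3r in sham (1.30 FPKM) and at day 3 (4.03), day 7 (5.74) and day 28 (2.22). S100a9 was listed at day 1 (10.1 FPKM) and day 14 (5.32) only. S100a8 was at 6.18 FPKM (day 1), 1.59 (day 3), 0.682 (day 7) and 3.84 (day 14). At day 1 the microglia markers were thus below sham in sum, with P2ry12 (18.0 FPKM in sham and 7.01 at day 1) and Gpr34 (7.93 and 2.18) called lower, while the other 2 lists were above it. The part of cell numbers in the levels of the 9 genes was not tested.

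Relative to the microglia marker sum, the log2 ratio to sham at day 7 was 1.15 for Fcer1g, 1.00 for Fcgr1, 1.67 for Fcgr2b, 0.64 for Fcgr3, 2.30 for Ms4a6c, 2.08 for Ms4a6d and 1.37 for Ms4a7. At day 14 it was 1.11 for Fcgr3 and 1.46 to 2.09 for the other 6. At day 28 it was 0.11 (Fcgr1) to 1.26 (Ms4a6c). Astrocyte markers were at 1.04 to 1.73 times sham in sum, neuron markers at 0.738 to 0.947 and oligodendrocyte markers at 0.889 to 1.25. Of the 8 astrocyte markers only Gfap (85.8 FPKM in sham and 698 at day 3) was called higher at day 1, 3, 7 and 14. The shares of all genes called higher at these days were 5.11% to 8.97%. The median log2 ratio of the astrocyte list was -0.13 to 0.33 over the 5 days. Lists for T or NK cells (6 of 9 with a value), mast cells (5 of 7) and dendritic cells (5 of 7) summed to at most 2.00, 1.27 and 1.96 times sham, and Fcer1a, Ms4a2 and Cd8a had no value.

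**Figure D5:**
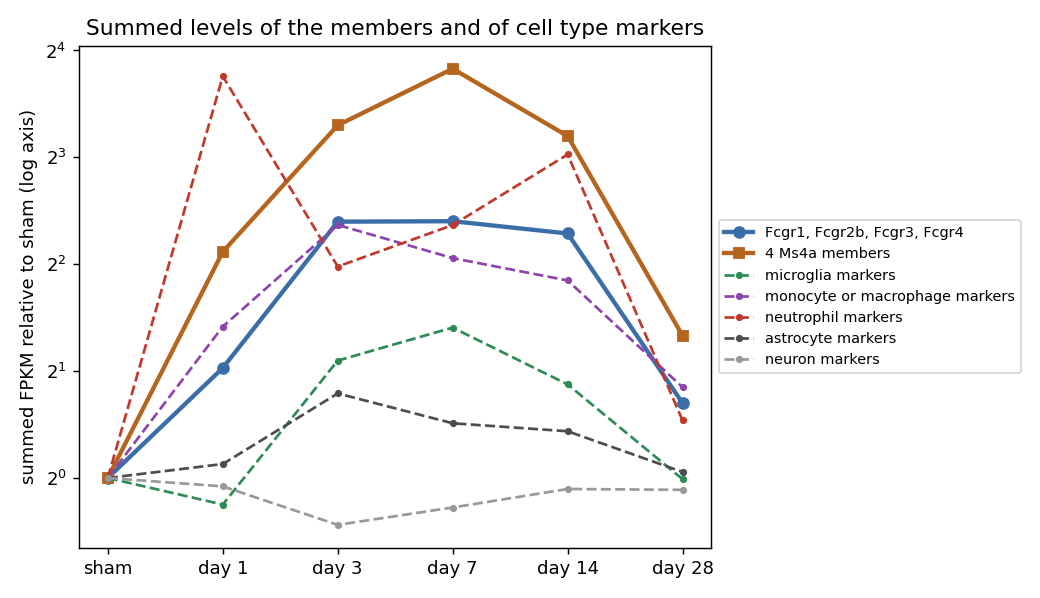
Summed FPKM relative to sham (y axis, log scale to base 2) of the 4 Fcgr genes, the 4 Ms4a genes and 5 marker lists in the 6 libraries (x axis, not to scale), with genes not listed taken as 0. The neutrophil list is highest at day 1 (13.5 times sham), and the neuron list stays below 1 after stroke.

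The pattern over the 6 libraries was compared with that of 3572 other genes listed in every library with a range of at least 1 on the log2 scale and at least 1 FPKM in some library, by Pearson's r of log2(FPKM + 0.1) with the mean profile of the 7 members listed throughout. The 10 genes most like it were Fgd2 (r = 0.999), P2ry6 (0.998), Ly86 (0.997), Rac2 and Cotl1 (both 0.996), C1qc (0.994), C1qb (0.993), Gpx8 (0.992), and Spi1 and Ftl1 (both 0.991). C1qb and C1qc encode chains of complement C1q, which like the Fc receptors binds IgG, and C1qc was at 16.5 FPKM in sham and 117 at day 7. Of the 3572 genes 111 had an r of at least 0.95, so an r of that size was not particular to the 10 genes named. Each r rests on 6 libraries and has no replicate check. Each member against the mean of the others gave 0.984 for Fcgr2b, 0.981 for Fcgr3 and Fcgr1, 0.977 for Fcer1g, 0.968 for Ms4a6c, 0.906 for Ms4a6d and 0.851 for Ms4a7. The early Ms4a6d and the late Ms4a7 were thus least like the rest.

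Genes beside the members were looked at after the values were seen. Within 100000 bases of a member 22 other genes had a value, and of the 15 that passed the filter at day 7, 1 was higher and 1 lower, against 8.53% and 2.12% of all genes. The higher one was Cfap126, near Fcgr3 and Fcgr4, at 0.523 FPKM in sham, 0.412 (day 1), 1.91 (day 3), 2.83 (day 7), 2.49 (day 14) and 0.986 (day 28). Cfap126 passed the filter through the day 7 library alone. The lower one was Hist2h2be near Fcgr1, listed in sham only (1.38 FPKM), so that it passed the filter through sham alone. Of 181 member events 178 lie within the annotated span of their gene. The other 3 are a start event of Fcgr3 outside it (chr1:171065413-171065977), listed in sham and at day 1 and 14, and the value of Fcgr3 comes from its end event instead.

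The following facts of the libraries touch all values. Each library listed 13263 to 13987 genes. Of 10 genes that every cell uses 8 had a value, and their median log2 ratio to sham was -0.13 to 0.36, but Ppia was at 498 FPKM in sham, 601 (day 1), 62.2 (day 3), 121 (day 7), 713 (day 14) and 131 (day 28). Why its value differed so much was not tested. Gapdh and Rpl13a had no value. Tbp was called higher at day 28, and B2m at day 3, 7 and 14. How deep each library was read is unknown, and no counting interval is given.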

How the data were processed

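RNA of the ipsilateral cortex, pooled from 3 mice per group, was sequenced by the authors (poly(A), strand-specific, paired-end, 150 bases, a stated average of 33.6 M reads). The authors deposited FPKM per transcript start, end or splicing event, with events at 0 left out. The submitters' notes name Trimmomatic 0.30, HISAT2 2.0.1, HTSeq 0.6.1 and mm10. The transcript assembler and event caller are not given in the sources used here.

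Exact duplicate lines were dropped. A gene's value was the largest of its summed start FPKM, summed end FPKM and any single event FPKM, a lower bound on the FPKM of its locus. Of 15441 identifiers 15411 matched GENCODE M21, and 879 loci that carry none were not used. Ratios are log2((FPKM + 0.1)/(sham FPKM + 0.1)), with a threshold of 1 and a filter of at least 1 FPKM in 1 of the 2 libraries. Genes not listed counted as 0 in counts and sums only. From each list, the 4 genes with the highest FPKM, the 2 with the largest absolute log2 ratio at day 7 and calls of 5 or fewer could be named. Values of some listed genes are not reported here. Microglia marker sums divide a member's ratio by that of the list. The members and lists were chosen with earlier results of these data known. Simulated data with known gene values and changes were used to test the scripts. Alternatives covered the gene value, pseudocount, scaling, threshold and filter. Python 3.11.15, numpy 2.4.6, pandas 2.3.3 and matplotlib 3.10.9 were used.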

Additional observations from a re-analysis of the deposited data

Results flagged for a closer look

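Ms4a7 had a log2 ratio to sham of -0.23 (day 1), with 0.408 FPKM against 0.494 in sham, while it was above sham at the 4 later days (1.38 (day 3), 2.77 (day 7), 2.76 (day 14) and 0.22 (day 28)). The opposite sign drew attention to it. The difference between the days was not tested, since each has 1 library, and both values lie under 0.5 FPKM and rest on few events.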

How the results depend on the processing

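Of 193 alternative values, 180 stayed within 1.5-fold of the reported one or within 1.5 times its count, 12 moved further and 1 reversed from a value past 1.5-fold. Another difference, at day 14, changed sign from a smaller value and is among the 12. Part of the 180 could not move, since every member had the same value in every library with events inside the annotated span only. Alternatives for the level at day 14 over day 7 were added after the data were seen, as were the counts with genes listed in both libraries only, and the median log2 ratio then ranged from -1.28 to -0.77 for the Ms4a6 genes and from -0.36 to -0.07 for the receptor genes. The log2 ratio of activating to inhibitory receptors within a library cannot move under the scalings and has the same values by end events or events inside the span. Corrected for length it was 2.00, 1.86, 1.68, 1.85 and 2.42 at the 5 days, with sham at 2.66, still highest in sham and lowest at day 7. The count of members higher at day 1 was 2 with a threshold of 2 (reported 4). At day 28 it was 0 with start events only, with a pseudocount of 1 or with a threshold of 2, and 4 with no filter (reported 1). The median at day 3 was 3.00 with genes not listed taken as 0 (reported 2.12), and at day 14 it was 1.87 with a pseudocount of 1 (reported 2.61). The receptor minus Ms4a difference was -1.54 at day 1 with end events only, and with a pseudocount of 1 it was -0.090 (day 1), 0.094 (day 3), -0.14 (day 7), 0.25 (day 14) and -0.16 (day 28), with the sign changed at day 3 and day 14. The pseudocount of 1 is above every sham value of the Ms4a genes. The cause of the other shifts was not tested. Members highest at day 7 numbered 5 with start events only and 6 with end events only or corrected for length (reported 7), and Ms4a7 was highest at day 14 by end events. No paired analysis was possible because each group has 1 library, and for the same reason no library could be left out. Unknown depth limits the low values, above all those under 1 FPKM.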
